A study of Mus musculus with 2 samples.

Results

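CtBP2 occupancy was examined at 6 loci of insulin and insulin-like growth factor signalling in MIN6 cells, a mouse insulinoma line that stands in for pancreatic beta cells. The loci were the windows set for Irs2, Irs1, Insr, Igf1r, Foxo1 and Foxo3, and they covered 910 kb of the 2560 Mb analysed, or 4550 of 12801450 steps of 200 bp. The Irs2 window was chosen by its ChIP read depth in these libraries, so its depth is a description and supports nothing. The other 5 windows were set by gene name, but with earlier results of these data known. The study held 2 libraries from cells in regular culture: 1 chromatin immunoprecipitation (ChIP) with an antibody against CtBP2 (Active Motif), and 1 input of sheared chromatin with no antibody. Both came from the same line, cross-linked with formaldehyde, with no treatment or genotype that differed. There was no replicate check, every comparison below is of the reads of these libraries, and no IgG library was analysed. Positions are 1-based on mouse build mm9. No annotation of that build was used here, so clusters are not assigned to an exon, an intron or a gene start.

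The insulin receptor (Insr) and the insulin-like growth factor 1 receptor (Igf1r) are membrane tyrosine kinases. When bound by ligand they phosphorylate the docking proteins Irs1 and Irs2, which recruit phosphoinositide 3-kinase and lead to activation of the kinase Akt. Akt phosphorylates the forkhead transcription factors Foxo1 and Foxo3 and keeps them out of the nucleus. In beta cells Irs2 is needed to maintain cell mass, and Foxo1 is a regulator of beta cell identity and stress responses. CtBP2 is a corepressor that does not read DNA itself but is carried to it by partner proteins, and it binds NAD(H).

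Upstream sequences of 5 of the 6 genes were matched by symbol in a set made from RefSeq (build GRCm38.p6). That set had no entry for Insr. They are the 250 bases that end just before the annotated gene start, written in the direction of the gene. Their GRCm38.p6 positions are those of another build and cannot be set against the mm9 positions of the clusters, so whether a cluster covers them was not tested. Irs2, Irs1 and Foxo1 are shown because they carry the motifs searched that differed between the genes. Capitals mark the E-box palindrome CACGTG, the insulin response sequence core TGTTTTG and the CCAAT box, each searched on both strands (ATTGG is CCAAT on the other strand).
Irs2, chr8:11008930-11009179, minus strand: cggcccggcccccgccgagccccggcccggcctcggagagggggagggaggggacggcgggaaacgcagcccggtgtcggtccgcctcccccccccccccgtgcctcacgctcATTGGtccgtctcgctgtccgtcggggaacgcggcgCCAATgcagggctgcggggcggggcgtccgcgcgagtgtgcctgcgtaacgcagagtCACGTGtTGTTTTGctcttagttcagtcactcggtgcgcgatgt
Irs1, chr1:82291440-82291689, minus strand: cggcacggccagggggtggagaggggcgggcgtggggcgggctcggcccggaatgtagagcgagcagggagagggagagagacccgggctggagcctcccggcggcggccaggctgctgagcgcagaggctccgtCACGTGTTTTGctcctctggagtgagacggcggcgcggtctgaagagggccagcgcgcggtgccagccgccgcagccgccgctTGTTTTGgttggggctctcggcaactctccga
Foxo1, chr3:52268087-52268336, plus strand: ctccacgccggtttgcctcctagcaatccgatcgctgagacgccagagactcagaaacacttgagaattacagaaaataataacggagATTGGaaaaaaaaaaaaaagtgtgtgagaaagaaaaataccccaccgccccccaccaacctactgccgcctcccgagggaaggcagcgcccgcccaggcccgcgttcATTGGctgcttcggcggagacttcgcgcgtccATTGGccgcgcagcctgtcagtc

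Irs2 and Irs1 each held CACGTG beside TGTTTTG. In Irs2 the E-box began 44 bases before the gene start and 1 base separated it from TGTTTTG. In Irs1 it began 115 bases before the start, the motifs overlapped by 2 bases, and a further TGTTTTG began 32 bases before the start. CACGTG was present in 6.02% and TGTTTTG in 5.56% of all 32851 upstream sequences of the same length, and both were present in 0.295%. CCAAT was found in Irs2 and, 3 times, in Foxo1, against 33.8% of all sequences. The GC box GGGCGG was present in all 5 matched genes, against 32.7% of all sequences. The shares over all sequences were not taken from sequences of like G and C content. The FoxO core TGTTTAC (3.17% of all sequences) and the cAMP response element TGACGTCA (1.55%) were not in these 5 stretches of 250 bases. The sequences were rich in G and C, at 77.6% in Igf1r, 76.4% in Foxo3, 72.8% in Irs2 and 72.4% in Irs1, against a median of 52.4%. Foxo1 had 56.0%. Their ratio of observed to expected CG dinucleotides was 0.879 to 1.12, against a median of 0.373. Foxo1 had a ratio of 1.04 within that range, but the fewest CG dinucleotides, 20 against 28 to 42 in the other 4.

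Each window held 1 dominant CtBP2 cluster. Reads were counted once per chromosome, 5 prime end and strand, in steps of 200 bp. A step was called raised if it held at least 10 ChIP reads and at least 3 times the larger of the genome mean and the input scaled to the ChIP total. Raised steps with at most 1 other step between them were joined into clusters. The 6 windows held 76 raised steps (1.67% of their steps), against 0.543% of all steps of the genome. Without Irs2 the count was 60 of 4250 (1.41%). The raised steps formed 9 clusters, of which the largest in each window together took up 1.60% of the length and 80.4% of the 9951 ChIP reads. All raised steps held 83.5% of the ChIP reads of the windows (95% Wilson interval 82.8 to 84.2) and 29.2% of the input reads (28.0 to 30.5). Without Irs2 the ChIP share was 81.4%. Over the whole genome the same shares were 57.7% and 7.57%. The rule keeps steps by their ChIP reads over input, so a larger ChIP than input share follows from it. The shares also depend on the lengths set for the windows. Intervals here and below cover counting error only.

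**Figure D1:**
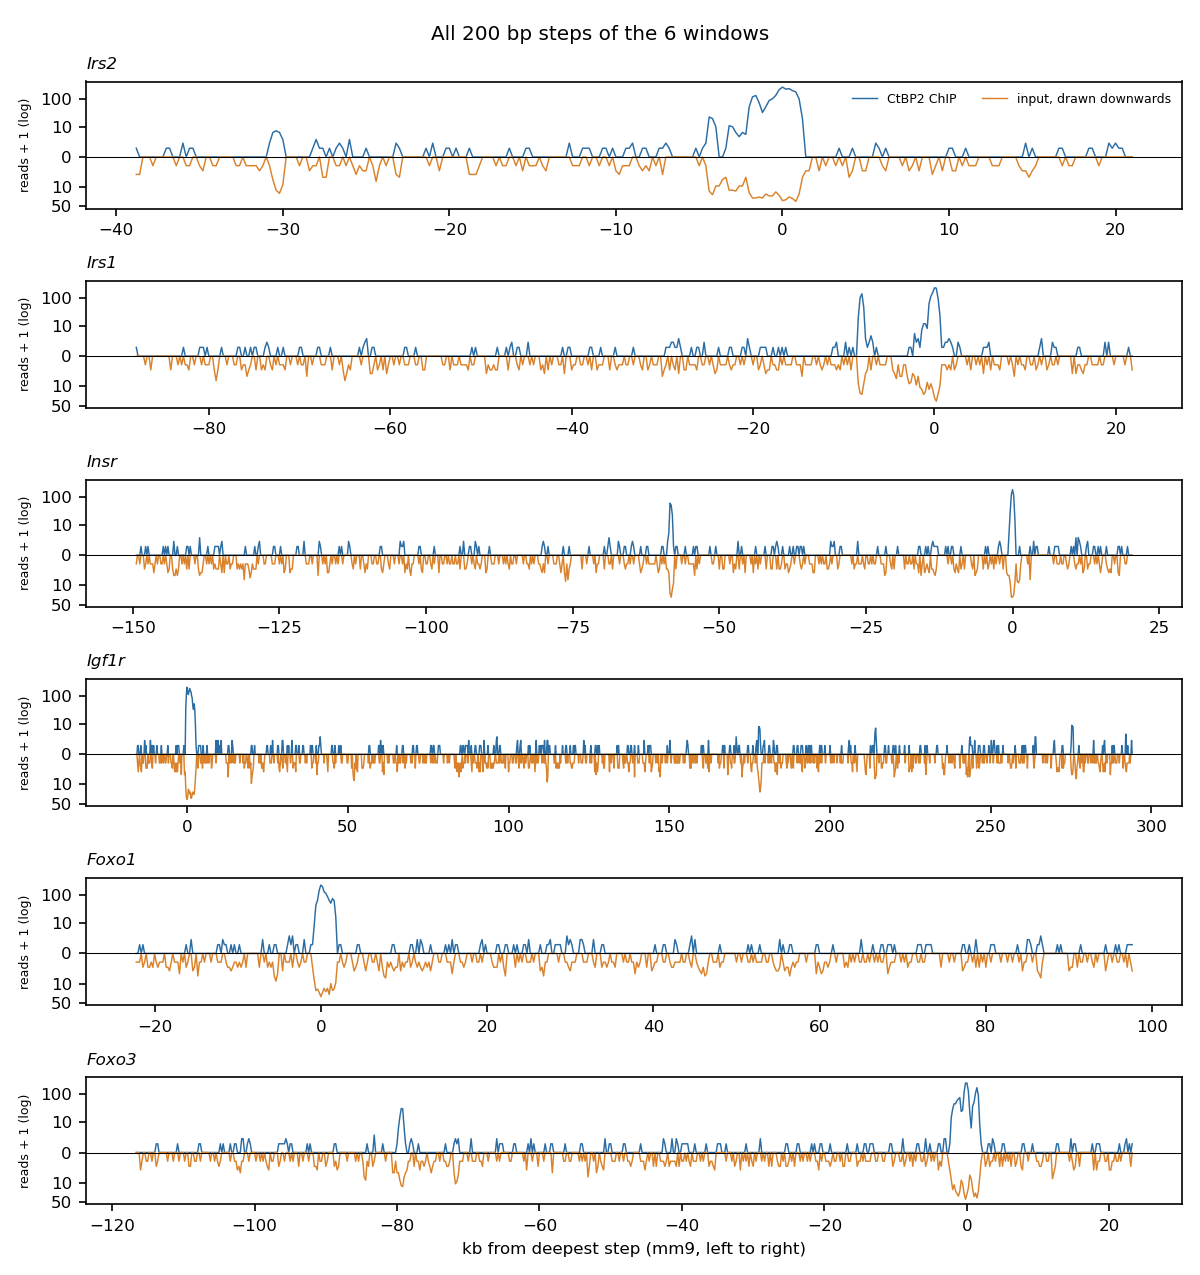
Distinct reads per 200 bp step over the whole of each window, ChIP upwards and input downwards, both as reads plus 1 on a log axis, with distance from the deepest step in kb on the horizontal axis. Each window has 1 dominant ChIP cluster at 0 kb, and smaller ones stand 7.8 kb away in Irs1, 58.0 kb in Insr and 77.6 kb in Foxo3 by the starts of the clusters; input rises at the same places.

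Of the substrate genes, Irs2, whose window was chosen by depth, had more ChIP reads in its dominant cluster than Irs1. The Irs2 window had the most reads in 1 cluster: 2171 ChIP and 373 input reads over 3.4 kb, at 11006801 to 11010200 of chromosome 8. It ranked 4th by reads among the 20224 clusters of the genome, between clusters of 2352 and 2145 reads. With all deposited reads the largest Irs2 cluster covered 2.2 kb and ranked 24th. Of all distinct ChIP reads of the Irs2 window, 91.5% lay in the 3.4 kb cluster, which was 5.67% of the window length. Its reads did not form 1 mound. From left to right, steps rose to 131 reads at 11007201, fell to 33 at 11007601 and rose to 255 at 11008801. At these steps input changed less, with 25 reads at the left summit, 25 in the trough and 31 at the right summit. ChIP over scaled input was thus 7.71 and 12.1 at the summits and 1.94 in the trough, which was the only step of the 17 that was not raised. The Irs2 gene lies on the minus strand in RefSeq, so the smaller mound is on the downstream side of the larger in gene direction. The non-coding gene 9530052E02Rik overlaps Irs2 in the RefSeq order of genes, and reads carry no mark of which gene a site belongs to.

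**Figure D2:**
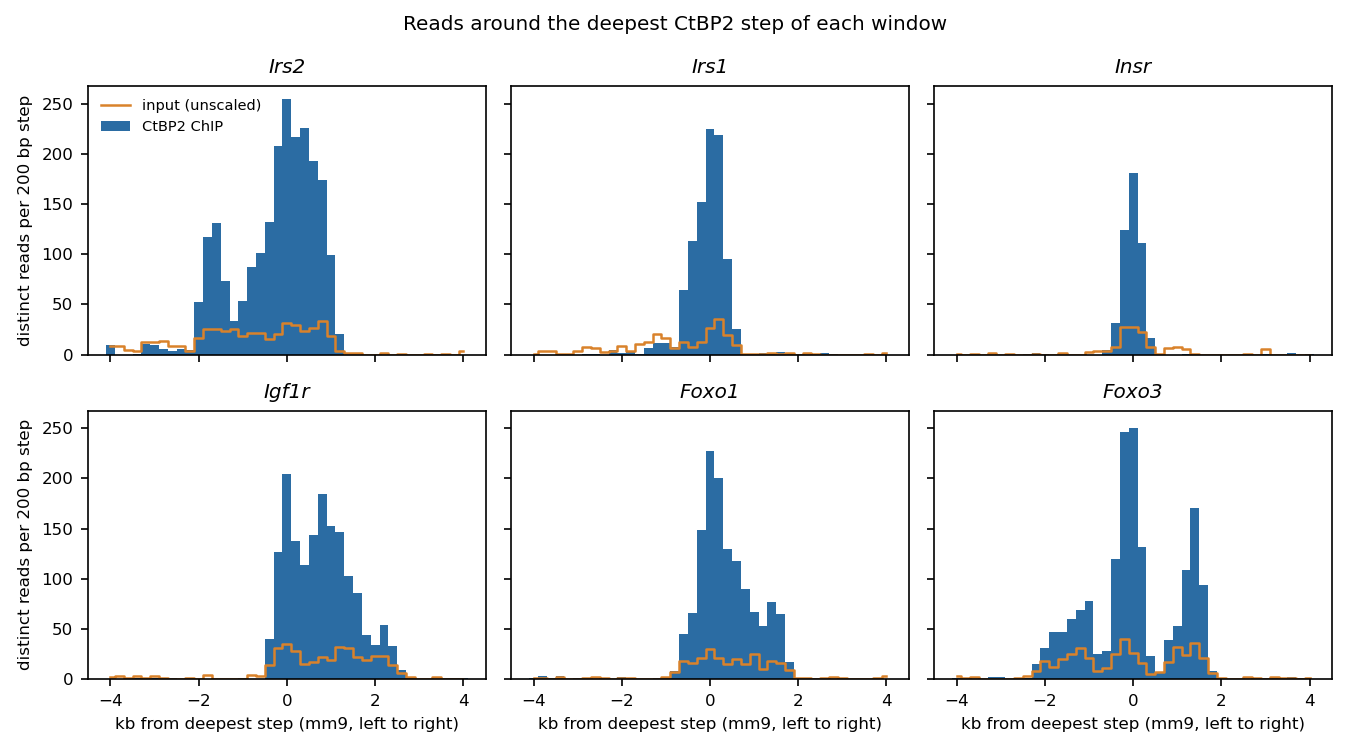
Distinct ChIP reads (bars) and input reads (line, not scaled) per 200 bp step within 4 kb of the deepest step of each window, with kb from that step on the horizontal axis. Irs2 has a trough of 33 reads between summits of 131 and 255, Foxo3 has 3 mounds, and Irs1 and Insr have 1 narrow mound each.

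Irs1 held 2 clusters. The larger, at 82287401 to 82288800 of chromosome 1, had 893 ChIP and 124 input reads over 1.4 kb and ranked 613th by reads. Its steps rose in 1 mound from 64 reads to 225 and 219 and fell to 25. Here the ChIP to input ratio leaned to the left of the summit: the steps at 82287601 and 82287801 had folds of 20.8 and 17.2 from 113 and 152 reads, against 12.7 at the deepest step and 9.21 beside it. The step at 82287601 rests on 8 input reads. The smaller cluster began 7.8 kb to the left of the larger, at 82279601 to 82280400, with 311 ChIP and 54 input reads. Irs1 is on the minus strand in RefSeq, so this site is downstream of the larger one in gene direction. The intervals of the 2 Irs1 ratios overlapped, at 10.6 (exact 95% interval 8.77 to 12.9) and 8.48 (6.33 to 11.5). The smaller Irs1 cluster ranked 6327th by reads.

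The receptor genes differed in cluster size. The Insr window had the smallest of the 6 dominant clusters, with 447 ChIP and 84 input reads over 0.8 kb at 3279001 to 3279800 of chromosome 8, ranked 4188th. It was a single mound of 4 steps with 31, 124, 181 and 111 ChIP reads and 8, 27, 27 and 22 input reads. Only 63.5% (60.1 to 66.8) of the ChIP reads of the Insr window lay in raised steps, the lowest share of the 6 windows. Igf1r, in contrast, had 1606 ChIP and 345 input reads over 3.0 kb at 75095401 to 75098400 of chromosome 7, ranked 31st. With all deposited reads its largest cluster covered 2.0 kb and ranked 174th. With distinct reads the first Igf1r summit held 204 reads at 75095801 and the next held 185 at 75096601, with 114 in between. That dip was not one of ratio, since input fell too, from 35 to 15 reads, and the fold was 11.2 in the dip against 8.58 and 12.4 at the summits. To the right the reads fell to 34 and a last small mound of 54 followed. Igf1r is on the plus strand in RefSeq, and 88.1% of its cluster reads beside the deepest step were on its downstream side.

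A further site in the Insr window lay just at the limit of the rule. It ran over 3 steps from 3221001 to 3221600, with 136 ChIP and 61 input reads and a fold of 3.28 (2.41 to 4.51). Its first step, with 61 ChIP and 20 input reads, was raised, whereas the next, with 52 and 27 reads, had a fold of 2.83 and was not. The raised step alone held 59 plus-strand and 2 minus-strand reads, while the 3 steps together held 64 and 72. Median minus-strand positions lay 216.5 bp to the right of plus-strand positions in ChIP and 212 bp in input. With a fold of at least 5 this site was no longer called.

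The forkhead genes had deep clusters of different shapes. At Foxo1, 1287 ChIP and 225 input reads lay over 2.4 kb at 52071601 to 52074000 of chromosome 3, ranked 99th. Its steps climbed from 45 to 227 reads within 4 steps and declined slowly to 53, with a low shoulder of 77 reads near the right end. Foxo1 is on the plus strand in RefSeq, and 75.5% of cluster reads beside the deepest step were on its downstream side. The Foxo1 window held no other cluster, and outside the cluster its next deepest step had 17 ChIP reads.

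At Foxo3, 1597 ChIP and 377 input reads lay over 3.6 kb at 41994801 to 41998400 of chromosome 10, ranked 32nd. It had 3 mounds with summits of 78, 250 and 171 reads, separated by troughs of 25 and 6 reads. In the deeper trough input was low as well, at 7 reads, and the fold was 1.26. At the central summit the fold was 14.2, against 5.47 and 6.99 at the outer ones. Its extent depended on the settings: with only adjacent raised steps joined, chosen after seeing the data, it was 2.4 kb with 1125 reads and rank 202. With 5 prime ends moved by 115 bp it was 2.2 kb with 1132 reads and rank 197, and with input over 1 kb it was 0.8 kb with 748 reads and rank 1118. A fold of at least 5 left 1.0 kb with 771 reads and rank 860. A smaller site of Foxo3 began 77.6 kb to the left of the large cluster, at 41917201 to 41917600, with 63 ChIP and 27 input reads and a fold of 3.43 (2.16 to 5.61). With the step beside it that held 16 ChIP reads, it had 38 plus-strand and 41 minus-strand reads. Gm38485, a non-coding gene, overlaps Foxo3 in RefSeq.

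**Figure D3:**
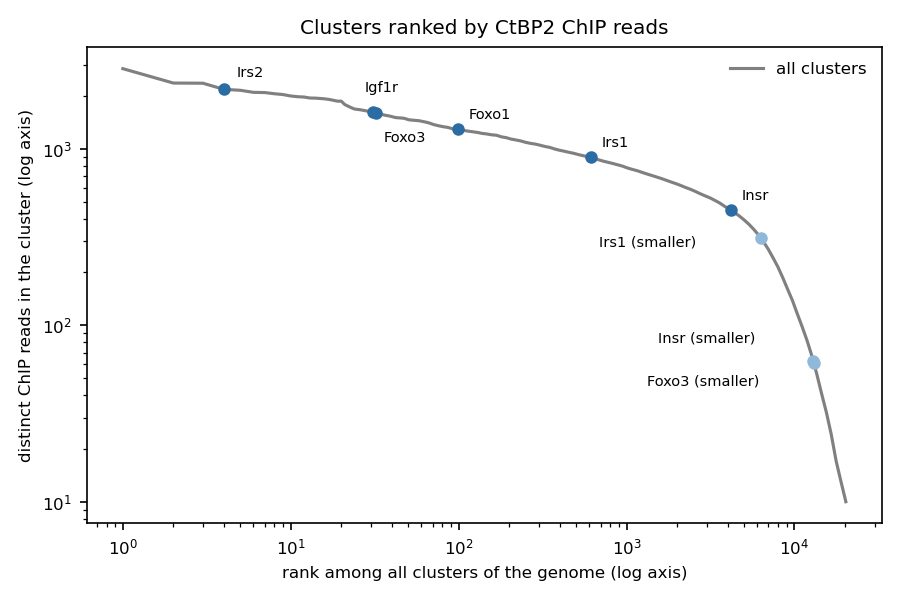
Distinct ChIP reads of every cluster against its rank by reads, both on log axes, with the clusters of the 6 windows marked. Dominant clusters run from rank 4 (Irs2) to rank 4188 (Insr), and the smaller sites of Insr and Foxo3 lie at ranks 13048 and 12922.

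The deepest 200 bp step of each window held 255 ChIP reads in Irs2 (95% Poisson interval 225 to 288), 250 in Foxo3 (220 to 283), 227 in Foxo1 (198 to 259) and 225 in Irs1 (197 to 256). It held 204 in Igf1r (177 to 234) and 181 in Insr (156 to 209). Neighbours in this order had overlapping intervals, while that of Foxo3 did not overlap that of Insr. Irs2 was chosen by depth, so its interval was not set against that of Insr. Each step is the deepest of its window, a choice that the Poisson intervals do not cover. Whole dominant clusters held 447 to 2171 reads, and 447 to 1606 without Irs2. Summit height is bounded with distinct reads, because at most 400 reads can be kept in a step, and 63.8% of these positions were filled in Irs2 and 45.2% in Insr. Input filled 6.50% to 8.75%. With all deposited reads the same steps held 1036 ChIP reads in Irs2, 940 in Foxo1, 867 in Foxo3, 698 in Irs1, 568 in Igf1r and 441 in Insr. On that scale Irs2 stood at 2.35 times Insr, against 1.41 times with distinct reads. This is a description, since Irs2 was chosen by depth.

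Input was itself raised at every summit. The deepest steps held 31 input reads in Irs2, 26 in Irs1, 27 in Insr, 35 in Igf1r, 30 in Foxo1 and 26 in Foxo3, or 26.7 to 35.9 times the genome mean of 0.974 per step. After input was scaled, the fold at the deepest step was 14.2 in Foxo3 (exact interval 9.43 to 22.1), 12.7 in Irs1 (8.47 to 19.9), 12.1 in Irs2 (8.32 to 18.2), 11.1 in Foxo1 (7.59 to 16.9), 9.87 in Insr (6.56 to 15.4) and 8.58 in Igf1r (5.97 to 12.7). All 6 intervals overlapped, so no order of the summits could be read from them. The Irs2 value moved most with the placing of steps: it was 21.3 with 5 prime ends moved and 18.5 with the grid moved by 100 bp, where the deepest step held 20 and 19 input reads. Across the 17 steps of the Irs2 cluster, ChIP and input counts had a Pearson correlation of 0.625. It was 0.785 over 7 steps of Irs1, 0.695 over 18 steps of Foxo3, 0.639 over 12 of Foxo1 and 0.513 over 15 of Igf1r. Neighbouring steps share fragments and library depth, so these are descriptions.

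Over whole dominant clusters, whose reads are more numerous, the intervals of the ratios were narrower. ChIP over scaled input was 10.6 in Irs1 (8.77 to 12.9), 8.57 in Irs2 (7.67 to 9.59), 8.42 in Foxo1 (7.30 to 9.74), 7.83 in Insr (6.19 to 10.0), 6.85 in Igf1r (6.09 to 7.72) and 6.23 in Foxo3 (5.57 to 6.99). Among the 15 pairs, intervals did not overlap for 4: Foxo3 was below Irs1, Irs2 and Foxo1, and Igf1r was below Irs1. The pair with Irs2 is a description, since Irs2 was chosen by depth. The share of such pairs among all clusters of the genome was not computed. The Foxo3 value holds for its 3 mounds joined. The largest Foxo3 cluster had a fold of 10.3 (8.39 to 12.7) with input over 1 kb and 10.1 (8.30 to 12.5) with a fold of at least 5. There it covered the central mound, and these intervals overlapped those of Irs1, Irs2 and Foxo1. The Igf1r value also depended on the extent joined. It was 7.92 (6.96 to 9.05) over 2.2 kb with the grid moved by 100 bp and 8.18 (7.15 to 9.39) over 2.0 kb with a fold of at least 5. With these settings its interval overlapped that of Irs1 (8.89 to 13.1 and 9.21 to 13.7), as it did with background-bin scaling. With the other settings it did not. All 6 values were above the median of all clusters, 5.84, though the interval of Foxo3 reached below it. By definition 10112 of the 20224 clusters were at or above that median. The 6 were picked as the clusters with the most ChIP reads of their windows, so this is a description. The smaller clusters had 8.48 in Irs1, 4.49 in Insr and 3.43 in Foxo3. Depth and ratio ranked differently. Irs1, 613th by reads, was 2005th by fold, whereas Igf1r and Foxo3 (both as joined), 31st and 32nd by reads, were 7881st and 9128th. Among the 202 clusters with the most reads, whose median fold was 9.94, 7 had a lower fold than Igf1r as joined, 45 than Foxo1 and 52 than Irs2. For Foxo3 as joined the number was 5, but its value of 10.3 with input over 1 kb is above that median.

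**Figure D4:**
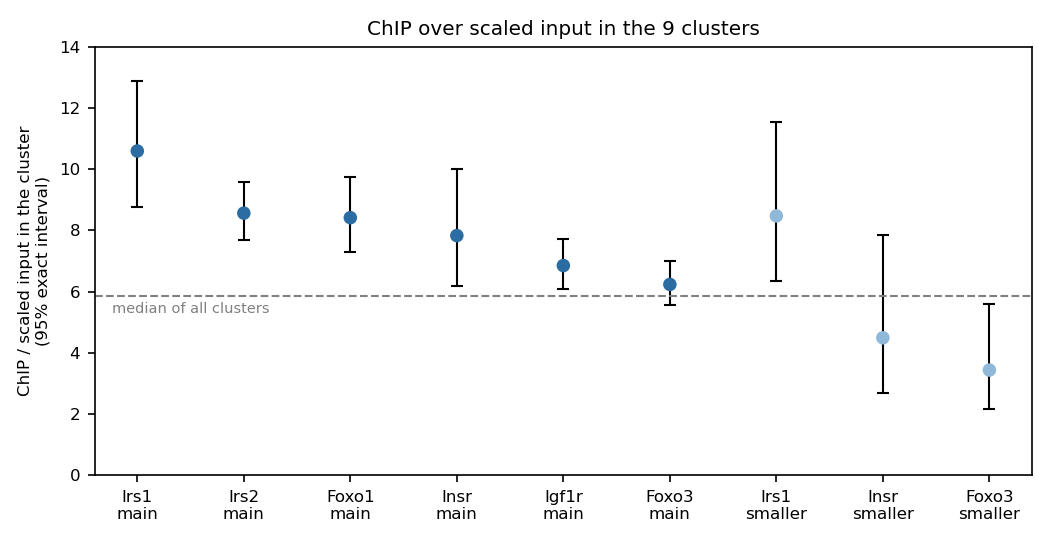
ChIP reads over scaled input reads in each of the 9 clusters, with exact 95% intervals of the ratio and the median of all 20224 clusters as a dashed line. The dominant clusters lie between 6.23 (Foxo3) and 10.6 (Irs1), and the smaller Insr and Foxo3 sites have 4.49 and 3.43.

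Reads in the clusters had the strand pattern of sheared chromatin, in ChIP and in input. In the dominant clusters, minus-strand ChIP reads were centred to the right of plus-strand reads by 229 bp in Irs2, 234 bp in Irs1, 217.5 bp in Insr, 222.5 bp in Foxo1 and 237.5 bp in Foxo3. The fragment length from strand cross-correlation on chromosome 1 was 230 bp. In input the shifts were 221 bp in Irs2, 172 bp in Irs1, 170 bp in Insr, 39 bp in Foxo1 and 196.5 bp in Foxo3. Igf1r gave 150 bp in ChIP and 231.5 bp in input. Reads were split evenly between strands, with 1082 plus and 1089 minus reads in Irs2 and 640 and 647 in Foxo1. Strand was not used to set the windows or to call steps, but the shift is not particular to ChIP. Medians over wide clusters also depend on the shape of the cluster.

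Away from clusters, ChIP density in 5 of the windows was near the genome value, and in Irs2 it was higher. The Irs2 window was chosen by ChIP depth, so its values here are descriptions. With clusters and 2 kb on each side left out, ChIP density was 1.10 reads per kb in Foxo3, 1.11 in Insr, 1.16 in Irs1, 1.26 in Igf1r and 1.37 in Foxo1, against 1.23 over the genome outside clusters. The Poisson intervals of these 5 windows included the genome value, and the largest upper bound was 1.61. The Irs2 window had 2.81 (2.38 to 3.31). Its stretch outside the cluster included the steps at 11004401 and 11004601. These held 23 and 20 ChIP reads beside 14 and 19 input reads and were not raised with input scaled to the ChIP total. With background-bin scaling (0.218) the Irs2 window had 22 raised steps in 3 clusters, against 16 raised steps in 1 cluster. Without steps of 10 or more ChIP reads the Irs2 density was 2.01. ChIP per input read there was 0.493 (0.386 to 0.626), against 0.602 with those steps and 0.283 over the genome. Input density outside clusters was 3.23 per kb in Igf1r (3.03 to 3.44), 3.49 in Foxo3 (3.18 to 3.83), 3.81 in Insr (3.51 to 4.12) and 3.88 in Irs1 (3.50 to 4.28), each interval below the genome value of 4.36. The intervals of Foxo1 and Irs2 included it. The Igf1r window therefore had 0.390 ChIP reads per input read (0.345 to 0.439) outside clusters, above the genome value, with a ChIP density near it.

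**Figure D5:**
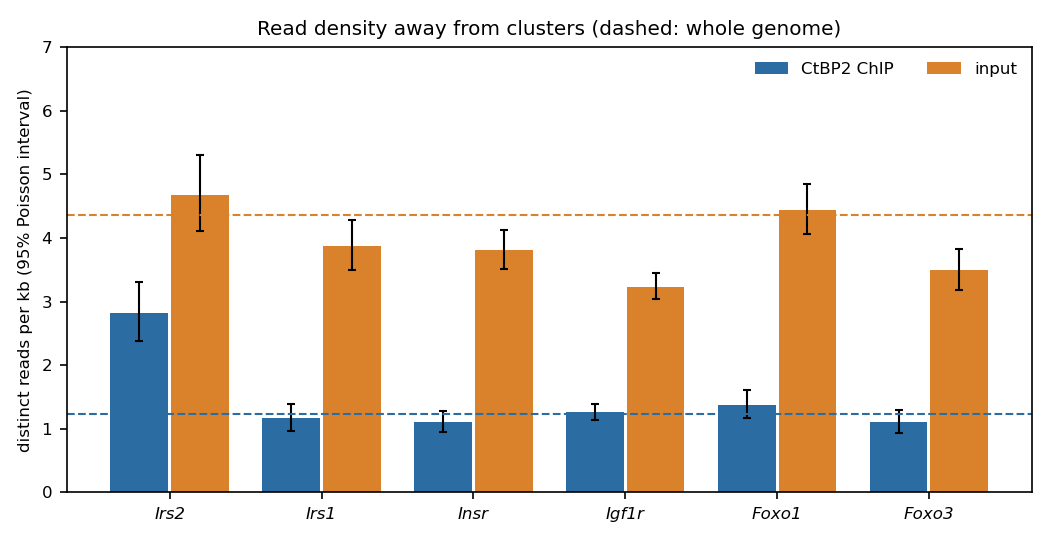
Distinct reads per kb outside clusters and 2 kb on each side of them in each window, for ChIP and input, with 95% Poisson intervals, and the genome values as dashed lines in the same colours. Irs2 has 2.81 ChIP reads per kb, and the other 5 windows lie between 1.10 and 1.37.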

How the data were processed

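The deposited files list aligned reads by position and strand, 1 per line. The name field is always 1, so counts of deposited lines are raw read counts, not normalized by the authors. The score field is always 0 and tells nothing of mapping. Per the file contents, repeated reads were kept. The submitters' processing notes name BWA, SAMtools 0.1.19, bedtools 2.17.0 and build mm9, with no settings. The ChIP library held 34890624 reads and the input 20896067. On 21 nuclear chromosomes 8474671 ChIP reads (24.3%) and 12471942 input reads (59.9%) remained with 1 read per position and strand. Both have 1 library per group, so no p-values were computed.

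Counts in 200 bp steps, raised steps (at least 10 ChIP reads, 3-fold) and clusters were computed over the whole genome with Python 3.11.15, NumPy 2.4.6 and SciPy 1.17.1, with input scaled by 0.679. The rule was tested on simulated data. Ratio intervals are exact (Clopper-Pearson, 95%), and amplified reads are not independent molecules. Each window's deepest step and up to its 3 largest clusters are named. Members, lists and windows were chosen with earlier results of these data known. Alternatives were all deposited reads, background-bin scaling (0.218), 5 prime ends moved 115 bp (0.5 of the fragment length by strand cross-correlation on chromosome 1), the grid moved 100 bp, input over 1 kb, a fold of 5 and 20 reads. Motifs were chosen after the sequences were seen. A list of other pathway genes was not used here, since no mm9 annotation was used.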

Additional observations from a re-analysis of the deposited data

How the results depend on the processing

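No paired analysis was possible because only 1 library stood for ChIP and 1 for input. Of 52 values recomputed, 38 stayed within 1.5 times the count or within the counting interval and 14 moved further. These were counts, shares and folds, and orders between genes were not among them. In cluster fold Foxo3 stood above Foxo1 with all deposited reads (9.16 against 8.03), input over 1 kb (10.3 against 8.42) and a fold of at least 5 (10.1 against 8.83). With the other settings it stayed below. The 76 raised steps ranged from 55 with a fold of at least 5 to 92 with background-bin scaling. Their 9 clusters became 18 with all deposited reads and 9 to 13 otherwise, 13 with only adjacent raised steps joined, a setting chosen after seeing the data. The share of ChIP reads in raised steps, 83.5%, was 85.0% with moved ends and with all deposited reads, 87.3% with background-bin scaling, 73.4% with a fold of 5 and 81.9% with input over 1 kb. Background-bin scaling, which multiplies input by a smaller factor, gave folds at the deepest step of 37.7 in Irs2, 39.7 in Irs1, 30.7 in Insr, 26.7 in Igf1r, 34.7 in Foxo1 and 44.1 in Foxo3. The Irs2 fold was 21.3 with moved ends and 18.5 with the moved grid. With all deposited reads ranks by cluster reads fell from 4 to 24 for Irs2, from 31 to 174 for Igf1r and from 32 to 453 for Foxo3. These largest clusters were then also narrower, at 2.2 kb in Irs2, 2.0 kb in Igf1r and 1.6 kb in Foxo3, against 3.4, 3.0 and 3.6 kb. With a fold of 5 Irs2 ranked 18th, and with only adjacent steps joined 16th. The causes of these moves were not tested. Filled positions limit distinct counts at summits, and input counts of 8 to 35 per step limit folds.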

Other observations

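The E-box and insulin response core seen next to each other in Irs2 and Irs1 were looked for in all 32851 upstream sequences, with TGTTTTG beginning at most 10 bases after the first base of CACGTG on either strand. They were found in 7 sequences (0.0213%), those of Irs1, Irs2, Irs4, Klf11, Pcbp1, Pyroxd1 and 1700019P21Rik. The pattern was chosen after the Irs2 and Irs1 sequences were seen, so these carry no weight. The Irs4 sequence had not been used to choose it. Irs4 encodes another member of the substrate family, so its match is a description only. Irs3, the remaining member in the table, lacked the pair. The stretches of the substrate genes are shown in gene direction, with both motifs in capitals, to show where they agree and differ (RefSeq, GRCm38.p6, chromosomes 8, X and 1, all minus strand).
Irs2: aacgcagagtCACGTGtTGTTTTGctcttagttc
Irs4: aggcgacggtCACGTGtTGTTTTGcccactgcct
Irs1: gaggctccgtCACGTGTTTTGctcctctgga
Irs2 and Irs4 shared a run of 17 bases. Irs1 shared 10 bases with each of them, fewer than with the other 4 genes. Those carry the same overlapped form and shared 11 or 12 bases with Irs1, but on the strand opposite to the gene. The search required both motifs, so it fixed most of the bases in all of these runs. Their lengths are descriptions. In Irs4 the E-box began 154 bases before the gene start. No window of build mm9 was set for Irs4, so its CtBP2 reads were not analysed here, and the match says nothing about which protein binds.

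Weak places outside clusters were few. In Igf1r, a step at 75371001 held 9 ChIP and 4 input reads, 275.2 kb to the right of the deepest step, and its fold of 3.31 passed the ratio but not the limit of 10 reads. In Foxo3, the step at 41994601 next to the large cluster held 31 ChIP and 18 input reads, a fold of 2.53.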
